A study of Mus musculus with 2 samples.

Results

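Among the Sox1-GFP+ cells sorted from mouse brain, a small group carried a set of genes known from Bergmann glia. The group was chosen on 6 genes. A cell belonged to it when it held a molecule of at least 3 of Gdf10, Gria1, Gria4, Dao, Hopx and Frrs1l. The rule took 277 of 7988 kept brain cells (3.47%, 95% interval 3.08 to 3.89), and both libraries together held 9952 kept cells. These are called the Bergmann glia-like cells here. They were set against the other 5382 kept brain cells with a molecule of Slc1a3, the astroglial glutamate transporter GLAST.

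The study sorted GFP+ cells from postnatal tail and from adult brain of Sox1-GFP knock-in mice, in which the fluorescent protein is made where the neuroepithelial gene Sox1 is active. Tissue was minced, dissociated with trypsin, sorted for GFP and captured on the BD Rhapsody system, which counts RNA molecules at their 3′ ends with molecular identifiers. Each tissue gave 1 library. No replicate check of any value was therefore possible, no test across samples was run, and all intervals cover counting error only.

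Bergmann glia are the radial astroglia of the cerebellar cortex. Their cell bodies lie beside the Purkinje cells, and their fibres span the molecular layer, where they wrap the synapses made by parallel and climbing fibres. They are known for AMPA receptors that pass calcium because they lack the GluA2 subunit, for strong glutamate uptake through GLAST, and for D-amino acid oxidase. Hedgehog protein from Purkinje cells acts on them, and in the young cerebellum their fibres guide granule neurons.

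The 6 rule genes have different roles. Gdf10 encodes a secreted protein of the TGF-beta superfamily (chromosome 14, 33923587 to 33937983, GRCm38). Gria1 and Gria4 encode AMPA receptor subunits, and Frrs1l a protein of the AMPA receptor assembly complex. Dao encodes D-amino acid oxidase, and Hopx a homeodomain protein without DNA binding. Their levels describe how the cells were chosen and are no finding. Levels are given as CPM, in which the molecules of a gene, summed over the cells of a group, are scaled to a common total.

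Hopx was found in 97.5% of the Bergmann glia-like cells and Gdf10 in 93.9%. Gria1 was found in 79.1%, Gria4 in 77.6%, Frrs1l in 65.0% and Dao in 58.8%. The number of Gdf10 molecules per cell had a lowest value of 0, a median of 4 and a highest value of 28. For Gria4 these were 0, 2 and 9. All 6 genes were present together in 72 cells, 49 cells lacked only Dao and 27 lacked only Frrs1l. Gria4 stood at 1680 CPM in the group and at 10.1 CPM in the other Slc1a3 cells, and Gdf10 at 3969 and 79.0 CPM.

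Brain cells did not thin out steadily with the number of rule genes. There were 6192 cells with none of the 6 genes, 1388 with 1 and 131 with 2. Just inside the threshold there were 44 cells with 3 genes, followed by 62 with 4, 99 with 5 and 72 with all 6. In the tail library 1653 cells had none, 280 had 1, 29 had 2 and 2 had 3. Those 2 tail cells, of 1964 kept (0.102%, 0.0123 to 0.367), both held Gria1, Gria4 and Hopx, and neither held Gdf10, Dao or Frrs1l. No index of a Bergmann glia-like cell was among the 18 cell indices kept in both libraries.

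**Figure D1:**
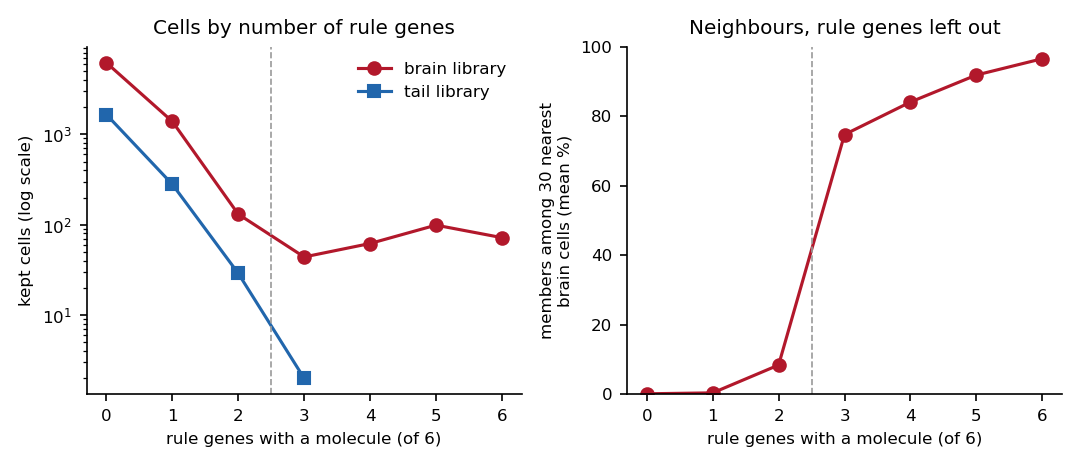
Left, kept cells (log scale) by the number of rule genes found, for the brain (circles) and tail (squares) libraries. Right, mean percent of Bergmann glia-like cells among the 30 nearest brain cells in components made without the rule genes; the dashed lines mark the threshold of 3 genes. Brain cells fell to 44 at 3 genes and stood at 99 at 5, and the neighbour share was 8.37% at 2 genes and 74.8% at 3.

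Genes that the rule did not use placed the cells together. With the 6 genes left out, brain cells were compared in 30 principal components of 2000 variable genes. Of the 30 nearest neighbours of a Bergmann glia-like cell, 88.7% on average were themselves in the group. Around the other Slc1a3 cells the share was 0.356%. The share was 74.8% for cells with 3 rule genes, 84.1% with 4, 91.9% with 5 and 96.6% with 6. Cells with 2 rule genes had 8.37%, and those with 1 had 0.351%.

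Bergmann glia genes outside the rule were also read. The list was chosen with earlier results of these data known, so it is no independent check of the label. Of 11 such genes with at least 50 molecules, 7 were higher in the group and 1, Gria2, was lower; Gria2 is given with the AMPA receptors, as is Cacng5, one of the higher genes. A gene is called higher or lower here when the whole 95% interval of its CPM ratio lay beyond 2-fold. Among all 8492 genes tested, 358 were higher (4.22%) and 280 lower (3.3%), with a median log2 ratio of 0.10. The median over the 11 genes was 2.003.

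The clearest of these was Sept4, which encodes a septin (chromosome 11, 87568903 to 87590539). Its molecules per cell ranged from 0 to 18 with a median of 3 in the Bergmann glia-like cells, and from 0 to 9 with a median of 0 in the others. The ranges overlapped, and 91.0% of the group against 5.33% of the others held a molecule. At equal depth, with each cell thinned at random to 400 molecules, the shares were 72.8% and 3.01%. Sept4 stood at 3360 against 85.0 CPM, a ratio of 39.5 (35.2 to 44.5).

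Fabp7, the brain lipid-binding protein of radial glia, was 7.36-fold higher (6.88 to 7.87). Tnc, which encodes the matrix protein tenascin C, was 31.8-fold higher (23.4 to 43.7). The FGF-induced factors Etv5 and Etv4 were 4.01-fold and 3.98-fold higher, and the transcription factor Zeb2 was 4.39-fold higher. Ptprz1, Sox2 and Sox9 had ratios of 1.35, 1.53 and 1.39 and were not called. Every Bergmann glia-like cell held an Slc1a3 molecule, although the rule did not ask for one. Slc1a3 molecules per cell ranged from 1 to 114 with a median of 39, against 1 to 48 with a median of 5 in the comparison cells, which had been chosen for the gene.

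The groups differed in depth and in mitochondrial share, and both are given here because they touch every ratio below. The Bergmann glia-like cells held 1167 molecules from 756 genes at the median, against 716 molecules from 431 genes in the other Slc1a3 cells. Mitochondrial transcripts made up a median of 2.94% of their molecules (quartiles 0.612 and 10.0) and 16.3% in the others (12.7 and 20.5). A further comparison took the other Slc1a3 cells nearest in mitochondrial share, 3 for each cell of the group. Only 107 of the other Slc1a3 cells were under 5%, so the shares stayed apart, with a median of 8.90% in the cells taken against 2.94%. Against them, of 3805 genes tested, 186 were higher and 247 lower, and Sept4 was 33.0-fold higher, Zic1 8.93-fold and Slc38a1 8.83-fold.

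Markers of other cell types were low or absent for some types and not for others. Granule neuron markers were at 0 for 3 of 5 genes, microglia markers for 6 of 7, and endothelial and mural markers for 4 of 5. In the others 0, 0 and 1 genes were at 0, but the group had far fewer molecules (356523 against 4341441). By CPM the sums had ratios of 0.420 (0.0497 to 1.59), 0.598 (0.294 to 1.09) and 0.0974 (0.00245 to 0.553). Only the last interval lay below 1, on 1 molecule in the group. The 10 neuroblast and neuron markers summed to 143 CPM in the group and 521 CPM in the others. Cells with at least 2 of these markers made up 1.81% of the group (5 cells) and 4.01% of the others. Oligodendrocyte precursor markers summed to 11.2 against 243 CPM, and oligodendrocyte markers to 143 against 670. However, 1.81% of the group (5 cells) held at least 2 oligodendrocyte markers, against 0.855% of the others. Purkinje neuron markers summed to 56.1 against 32.7 CPM, a ratio of 1.72 (1.02 to 2.75), and 3 cells of the group (1.08%) held 2 or more of them, against 1 of 5382 others (0.0186%). The ependymal markers stood at 154 and 150 CPM, a ratio of 1.03, and the 6 cycling markers at 42.1 and 155 CPM. In the comparison with the other Slc1a3 cells, no gene of these lists was higher by the rule given above. Many could not have been called for want of molecules. Only 0 of 5 granule neuron, 1 of 7 microglia and 1 of 5 endothelial and mural genes were tested. Of the Purkinje and the oligodendrocyte precursor genes 2 of 6 each were tested, and of the ependymal genes 3 of 6. The neuroblast and neuron, oligodendrocyte and cycling lists had 7 of 10, 5 of 6 and 6 of 6 genes tested.

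Against the 2 closer sets of astroglial cells described further on, some of these sums lay higher in the group. Oligodendrocyte markers stood at 143 against 31.8 CPM in the Chst2 and Hapln1 cells, a ratio of 4.49 (2.31 to 9.56). Microglia markers stood at 30.9 against 6.04 CPM in the Agt and Slc6a11 cells, a ratio of 5.11 (2.01 to 12.99), on 11 molecules on each side. Purkinje neuron markers had a ratio of 2.69 (1.48 to 4.74) to the Agt and Slc6a11 cells. The part of these markers in the other results was not tested.

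Of 10 genes of the response to dissociation, none was higher and 1, Btg2, was lower; the list summed to 1217 CPM in the group and 1680 in the others. Against the closer sets the list lay the other way. The Agt and Slc6a11 cells had 747 CPM, a ratio of 1.63 (1.46 to 1.82), and 1 of 5 genes, Jund, was higher at 2.54-fold. The Chst2 and Hapln1 cells had 813 CPM, a ratio of 1.497 (1.29 to 1.75), and none of 4 genes was called. The part of the response to dissociation in the other results was not tested.

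Genes listed for position along the neural axis differed between the groups, though Zic1 and Pax3 of the list also mark the dorsal neural tube. Of 10 hindbrain and cerebellar genes with enough molecules, 7 were higher and none was lower. The minimum of 50 molecules counted both groups together. Zic4 and Pax3 passed it only through the Bergmann glia-like cells, which tilts this count toward higher genes. Zic1, a zinc finger factor of dorsal neural tube and cerebellum, had between 0 and 6 molecules per Bergmann glia-like cell. It stood at 516 against 33.4 CPM, a ratio of 15.5 (12.4 to 19.3). Its share of cells was 39.4% against 2.42%, and 19.5% against 1.35% at equal depth.

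Zic4 was 31.0-fold higher (20.2 to 48.7), Zic5 7.83-fold and Zic2 7.75-fold. Pax3, a paired-box factor of the dorsal neural tube, was 20.1-fold higher (13.6 to 30.1). The Iroquois genes Irx1 and Irx5 were 3.92-fold and 3.57-fold higher, and Irx3 had a ratio of 0.955. En2, a marker of midbrain and cerebellum, had 14 and 19 molecules and was too sparse to be called.

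Forebrain genes went the other way. Of 11 tested, 8 were lower and none was higher. Lhx2, a LIM factor of the cortex and eye field, had 2 molecules in the group and 493 in the others (5.61 and 114 CPM). Otx2 had 2 and 309 molecules. Emx2, Six3 and Fezf2 had 1 molecule each in the group against 179, 170 and 139. Otx1 and Dlx2 had ratios of 0.145 and 0.258 and were not called. Mfge8, the gene of a secreted glycoprotein, was not called either. It was found in 61.7% of the group and 58.8% of the others, at 1035 against 1755 CPM, a ratio of 0.590 (0.530 to 0.655). Mfge8 gave 369 of the group's 394 molecules of the 14 genes of the list, so that the list as a whole summed to 1105 against 2384 CPM. Without it the list had 25 molecules in the group and 2729 in the others. Against the Agt and Slc6a11 cells, at 1587 CPM, 2 of 6 forebrain genes were lower, and against the Chst2 and Hapln1 cells, at 4270 CPM, 2 of 2 were.

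Counted by cell, 212 of 277 Bergmann glia-like cells (76.5%, 71.1 to 81.4) held a molecule of any of 15 genes of the hindbrain and cerebellar list. The share was 14.2% of the other Slc1a3 cells. Only 14 of them (5.05%, 2.79 to 8.34) held any of 13 forebrain genes, against 26.7% of the others. These 13 genes leave out Mfge8, which most cells of both groups held, a choice made with these values known. With Mfge8 counted, 62.5% of the group and 67.7% of the others held a forebrain gene. Without it, both kinds were found in 10 cells and neither in 61. The group was the deeper one per cell, so depth would raise both of its shares.

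**Figure D2:**
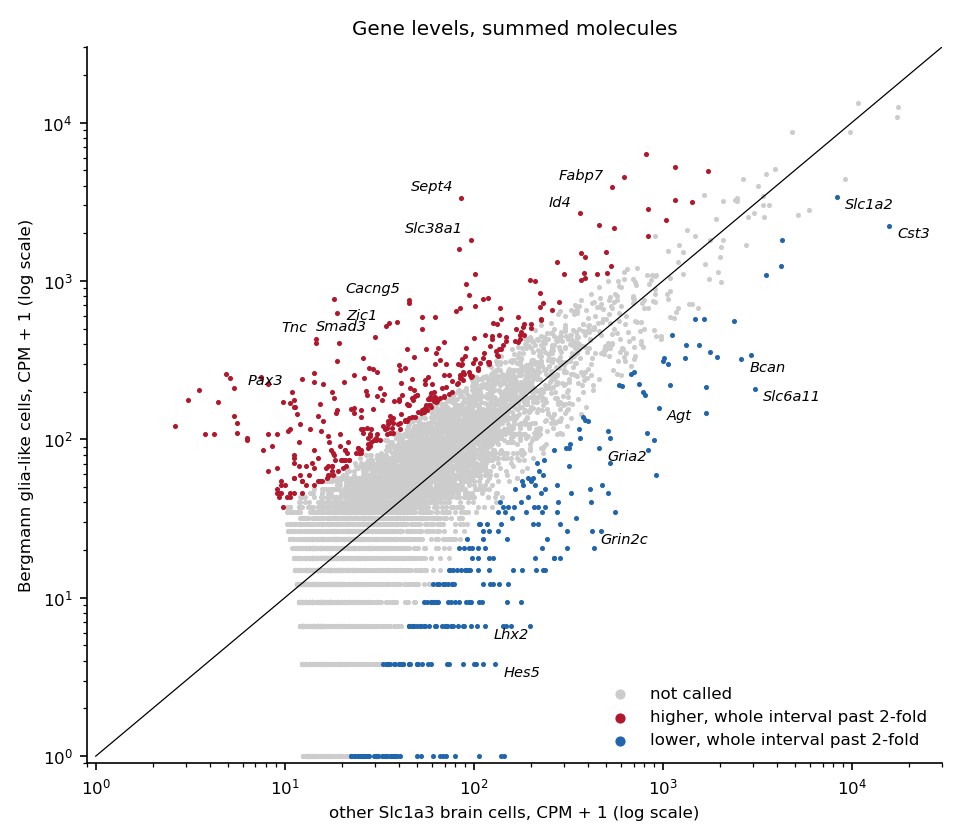
CPM + 1 of each tested gene in the Bergmann glia-like cells against the other Slc1a3 cells, on log scales, without the rule genes; the line marks equal levels. Red points (358) and blue points (280) have the whole interval of their ratio past 2-fold; Sept4 stands at 3360 against 85.0 CPM and Cst3 at 2233 against 15729.

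Bergmann glia sense glutamate with AMPA receptors, tetramers of the subunits GluA1 to GluA4 with auxiliary proteins. Since Gria1, Gria4 and Frrs1l chose the cells, only the other genes of this list are informative. Of 9 tested, 2 were higher and 1 was lower, with a median log2 ratio of 0.36.

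The lower gene was Gria2, which encodes GluA2, the subunit that blocks calcium (chromosome 3, 80681450 to 80802835). Gria2 had between 0 and 4 molecules per Bergmann glia-like cell and between 0 and 6 in the others, with a median of 0 in both. It was found in 9.75% of the group (6.52 to 13.9) and in 27.4% of the others, although the group was deeper. At equal depth the shares were 3.31% and 16.3%. Its summed level was 87.0 against 461 CPM, 5.31-fold lower (3.73 to 7.83).

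Gria1 and Gria4 without Gria2 were found together in 159 cells (57.4%), against 3 of the other Slc1a3 cells (0.0557%). Gria1 and Gria4 are rule genes, and a cell with both and 1 more rule gene could not be among the others. This contrast therefore describes how the cells were chosen and is no finding. A gene read in 1 cell at this depth can be missed, so a cell without a Gria2 molecule is not shown to lack it.

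The higher genes were Cacng5 and Cacng7, which encode auxiliary subunits of AMPA receptors. Cacng5 had a median of 1 and a highest value of 6 molecules per cell, and stood at 760 against 44.2 CPM, 17.2-fold higher (14.2 to 20.8). Cacng7 was 8.97-fold higher (6.81 to 11.8). Cacng4 had a ratio of 2.31 (1.77 to 2.98), Shisa9 of 1.35 and Cacng8 of 1.28.

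Other receptors for glutamate and for GABA were read next. Grin2c, an NMDA receptor subunit gene, stood at 25.2 against 419 CPM and was 16.6-fold lower (8.73 to 36.4). The metabotropic receptor gene Grm3 had a ratio of 0.614. Of 6 GABA-A receptor genes, only Gabra4 was called, at 6.78-fold higher (5.44 to 8.41). Gabra2 had a ratio of 2.30 (1.79 to 2.93), and Gabrg1 and Gabrb1 had ratios of 0.768 and 1.19.

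**Figure D3:**
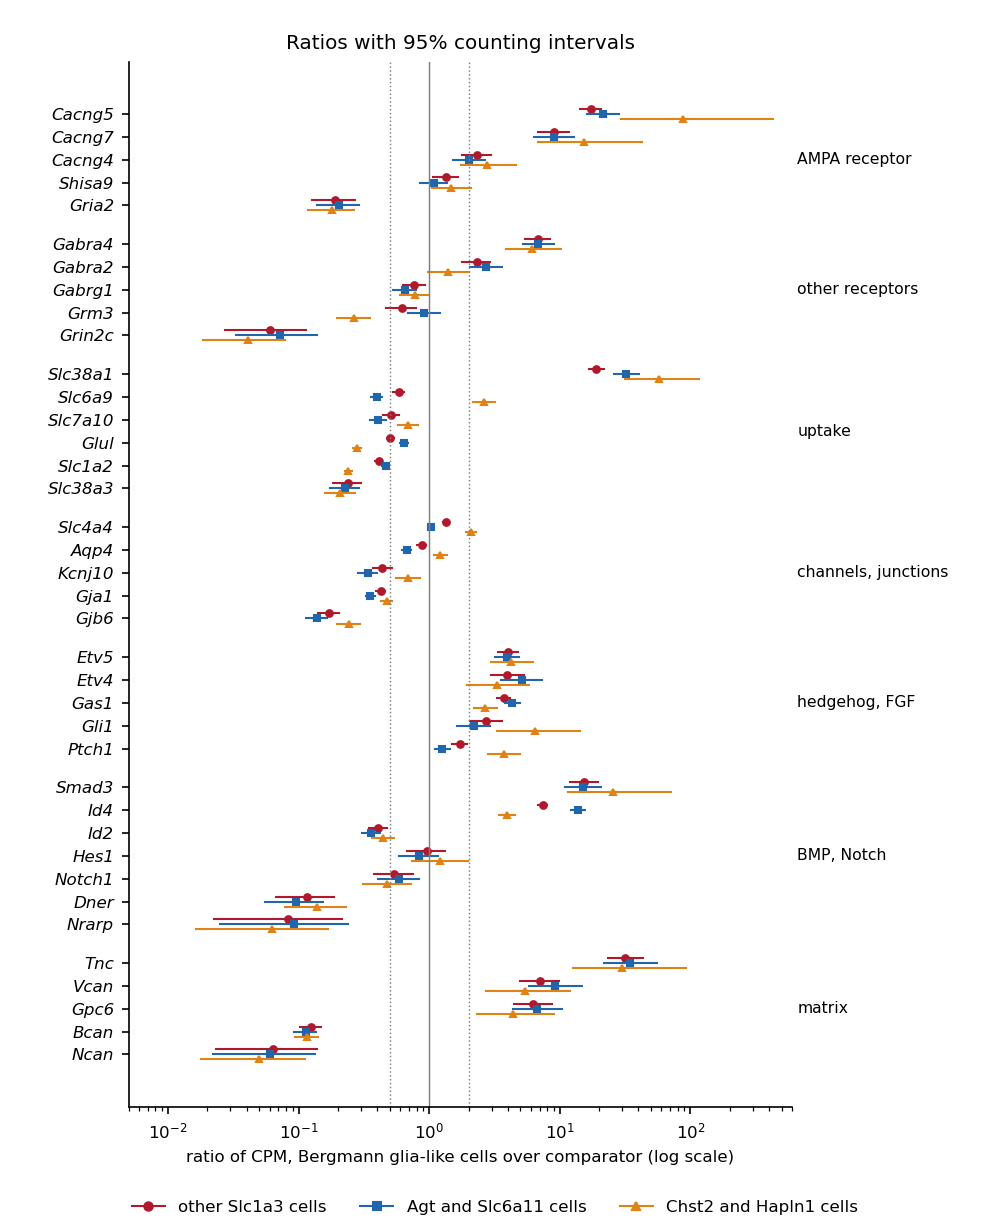
Ratio of CPM (log scale) in the Bergmann glia-like cells over other Slc1a3 cells (circles), over Agt and Slc6a11 cells (squares) and over Chst2 and Hapln1 cells (triangles), with 95% counting intervals as lines; dotted lines mark 2-fold. Slc38a1 and Cacng5 lie far to the right and Gria2, Grin2c, Bcan and Ncan to the left against all 3 sets, while Slc6a9 lies at 0.586 against the first and at 2.64 against the last.

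Transmitter uptake genes were not higher as a list. Of 10 tested outside Slc1a3, 1 was higher and 3 were lower, with a median log2 ratio of -1.14. Slc6a11, which encodes the GABA transporter GAT-3 (chromosome 6, 114131241 to 114249952), had a median of 0 and a highest value of 10 molecules in the Bergmann glia-like cells. In the others the median was 2 and the highest value 21. It was found in 9.03% against 75.5% of cells, and stood at 208 against 3060 CPM, 14.7-fold lower (11.7 to 18.8). Slc1a2, the gene of the glutamate transporter GLT-1, was 2.44-fold lower (2.31 to 2.59). Slc38a3, which encodes a glutamine exporter of astrocytes, was 4.21-fold lower.

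The higher gene was Slc38a1, which encodes a glutamine transporter mostly known from neurons. It had a median of 2 and a highest value of 10 molecules per cell, and was found in 84.5% of the group and 4.48% of the others. Its level was 1826 against 95.6 CPM, 19.1-fold higher (16.9 to 21.7). In 1656 brain cells with at least 3 neuron markers, none of them in the group, 20.9% held a Slc38a1 molecule and 0.543% a Sept4 molecule. The glycine transporter gene Slc6a9 and Glul, the gene of glutamine synthetase, had ratios of 0.586 and 0.504 and were not called.

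Dao being a rule gene, the enzymes of serine and glycine metabolism were read beside it. None of 10 tested was called in either direction. Amt and Gldc, which encode parts of the glycine cleavage system, had ratios of 2.42 (1.82 to 3.17) and 2.05 (1.44 to 2.86). Srr, the gene of serine racemase, had 18 and 95 molecules and a ratio of 2.31 (1.31 to 3.85). Psat1 had a ratio of 0.487.

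Water, potassium and coupling genes were mostly not called. Of 12 tested, none was higher and 2 were lower, both genes of astrocyte gap junctions. Gjb6, which encodes connexin 30, was found in 24.9% against 68.5% of cells and was 5.86-fold lower (4.89 to 7.09). Gja1, which encodes connexin 43, was 2.34-fold lower (2.16 to 2.53). The water channel gene Aqp4, the bicarbonate transporter gene Slc4a4 and the potassium channel genes Kcnj10 and Kcnj16 had ratios of 0.879, 1.34, 0.439 and 1.20. Gjc3, a connexin gene outside the list and one of the 15 leading higher genes, was 44.5-fold higher (34.3 to 58.2).

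Hedgehog signalling raises the transcription of Gli1, Ptch1 and Hhip in the cells that receive it. Of 10 pathway genes tested, 3 were higher and none was lower. Gas1, a coreceptor gene, was found in 65.0% against 19.3% of cells and was 3.71-fold higher (3.31 to 4.16). Hhip was 3.81-fold higher (2.55 to 5.59) and Gli1 2.74-fold higher (2.07 to 3.58). Ptch1, which encodes the receptor, had a ratio of 1.71 (1.497 to 1.95), and Smo, Gli2 and Gli3 had ratios of 0.891, 0.453 and 0.6003. Against the Agt and Slc6a11 cells described further on, 8 pathway genes were tested. Of these, 1 was higher and 1 lower, with a median log2 ratio of 0.08. Gli1 had a ratio of 2.19 to those cells and Hhip of 2.79, and neither was called. Against the Chst2 and Hapln1 cells, 3 of 4 tested were higher and 0 lower.

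Gdf10 belongs to the TGF-beta superfamily, so its relatives, receptors, mediators and targets were read as a list. Of 20 tested, 2 were higher and 1 was lower. Smad3, the gene of a mediator, was found in 40.4% against 2.27% of cells and was 15.3-fold higher (12.01 to 19.5). The Id genes, common targets of BMP signalling, differed in direction: Id4 was 7.39-fold higher (6.82 to 8.02), Id2 was 2.46-fold lower (2.10 to 2.89), and Id3 and Id1 had ratios of 0.575 and 0.219. The receptor genes Bmpr1a, Bmpr1b and Bmpr2 had ratios of 1.55, 0.860 and 1.05.

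In Notch signalling, receptors cut by their ligands free a fragment that joins the DNA-binding protein RBPJ at target genes such as Hes5, Hes1, Heyl and Nrarp. Of 13 genes tested, none was higher and 4 were lower. Hes5 had 1 molecule in the Bergmann glia-like cells and 561 in the others, and was 46.1-fold lower (8.23 to 1823). Nrarp had 4 and 588 molecules and was 12.1-fold lower (4.69 to 44.5). Heyl had 0 and 160 molecules. Dner, a gene of a Notch-like ligand known from Purkinje cells, was 8.60-fold lower (5.36 to 14.8). Hes1 had a ratio of 0.956 (0.678 to 1.32), and the receptor genes Notch1, Notch2 and Notch3 had ratios of 0.539, 0.435 and 0.802.

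The start regions of Hes5 and Nrarp are shown because both genes were among the lower ones. They run from 250 bases before to 50 bases after the start of the RefSeq transcript on GRCm38.p6, at chr4:154960673-154960972 and chr2:25180508-25180807, both on the forward strand. Capitals mark matches to GTGGGAA, the core letters of an RBPJ site, or to its reverse complement TTCCCAC.
Hes5: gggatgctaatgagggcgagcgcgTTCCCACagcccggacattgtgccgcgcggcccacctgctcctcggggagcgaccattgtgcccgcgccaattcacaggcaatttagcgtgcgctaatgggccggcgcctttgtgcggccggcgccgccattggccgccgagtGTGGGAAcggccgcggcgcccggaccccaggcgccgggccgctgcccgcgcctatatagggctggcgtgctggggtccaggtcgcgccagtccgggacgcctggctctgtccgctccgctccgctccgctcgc
Nrarp: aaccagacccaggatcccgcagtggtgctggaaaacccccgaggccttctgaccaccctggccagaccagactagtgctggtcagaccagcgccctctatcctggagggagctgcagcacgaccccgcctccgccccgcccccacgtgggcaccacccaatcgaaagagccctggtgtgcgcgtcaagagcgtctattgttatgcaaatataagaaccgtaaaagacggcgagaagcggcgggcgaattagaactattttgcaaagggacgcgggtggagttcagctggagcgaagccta
Hes5 has 2 matches, which begin at -226 and -83 from the start, and Nrarp has 0 in this window. Of 32851 start regions of this length, 2097 (6.38%) hold a match on either strand. A match is a run of letters and says nothing of binding in these cells.

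General astrocyte genes were split. Of 15, 1 was higher and 6 were lower. S100b, the gene of a calcium-binding protein of astrocytes, was 3.69-fold higher (3.33 to 4.08). Cst3, which encodes the protease inhibitor cystatin C, had a median of 1 molecule and a highest value of 65 in the Bergmann glia-like cells, against 11 and 90 in the others. It stood at 2233 against 15729 CPM, 7.04-fold lower (6.57 to 7.56). Agt, Ntsr2, F3, Acsl3 and Clu were 6.04-fold, 4.27-fold, 4.04-fold, 3.37-fold and 3.24-fold lower. Aldoc, Sparcl1, Gpr37l1 and Aldh1l1 had ratios of 1.30, 1.23, 1.82 and 1.51, and Gfap, the gene of the astrocyte intermediate filament, of 0.957 (0.662 to 1.34).

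Stem cell genes were read because the study sorted for neural stem cells. Of 12 tested, 3 were higher and 1 was lower, Hes5. Vim, which encodes the intermediate filament vimentin, was found in 77.3% against 4.12% of cells and was 19.2-fold higher (16.8 to 22.02). Cd9 was 2.85-fold higher (2.41 to 3.35), and Fabp7 stood in this list too. Sox1, the gene behind the reporter, was found in 21.7% of the Bergmann glia-like cells and 6.09% of the others. Its ratio of 2.49 (1.91 to 3.22) was not called, and at equal depth its shares were 7.35% and 2.93%. Egfr, a gene of activated stem cells, had a ratio of 0.591.

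Matrix and synapse organiser genes differed both ways, with 3 of 16 higher and 6 lower. Of the lectican proteoglycans, Vcan was 7.03-fold higher (4.97 to 9.87), while Bcan was 8.09-fold lower (6.73 to 9.82) and Ncan 15.8-fold lower (7.22 to 43.1). Of the glypicans, Gpc6 was 6.26-fold higher and Gpc5 13.4-fold lower. The neurexin gene Nrxn3 was 3.04-fold higher (2.17 to 4.196). Nrxn3 had a ratio of 0.772 when all other kept brain cells, those with neuroblast and neuron markers included, were the comparison.

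The 15 leading genes in each direction, in or outside the lists, were ranked by the interval bound nearer to 1. Beside Sept4, Tnc, Gjc3 and Zic4 the higher ones were Msx2, Slco4a1, Hk2, Abi3bp, Spock3, Ust, Col2a1, Gnb4, Rasl11a, Trf and Slc41a3, at ratios from 29.7 to 85.2. Msx2, a homeobox factor downstream of BMP signalling, had 73 molecules in the group and 11 in the others. Hk2, which encodes a hexokinase, had 92 and 17. Msx2 and Hk2 passed the minimum of 50 molecules only through the Bergmann glia-like cells. Trf, the gene of transferrin, was found in 35.7% against 0.242% of cells.

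The 15 leading lower genes included 3 with 0 molecules in the group. Olig2, a bHLH factor of the oligodendrocyte lineage and of some astrocytes, had 0 against 601 molecules, at least 16.5-fold lower. 2900052N01Rik had 0 against 624, at least 17.1-fold lower, and Klhdc7a 0 against 458, at least 12.5-fold lower; these bounds allow the group 3 molecules in all. Slc6a11, Grin2c, Hes5, Mfsd2a, Cadm1, Kcnd2, Kcnk1, Igsf1, Nnat, Fam171b, Cyp4f15 and Fzd2 completed the list, at 11.5-fold to 46.1-fold lower.

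Genes outside the rule were read against the number of rule genes. Among Slc1a3 cells with 0, 1 and 2 rule genes, Sept4 stood at 76.9, 80.8 and 334 CPM. In cells with 3, 4, 5 and 6 it stood at 3244, 3637, 3131 and 3496 CPM. Cst3 stood at 15990 CPM in cells with 2 rule genes and at 4215 in those with 3. Slc6a11 stood at 3226 CPM with 0, 2345 with 2, 388 with 3 and 81.5 with 6. The cells with 3 rule genes were also shallower, with a median of 695 molecules against 1604 in those with 6.

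**Figure D4:**
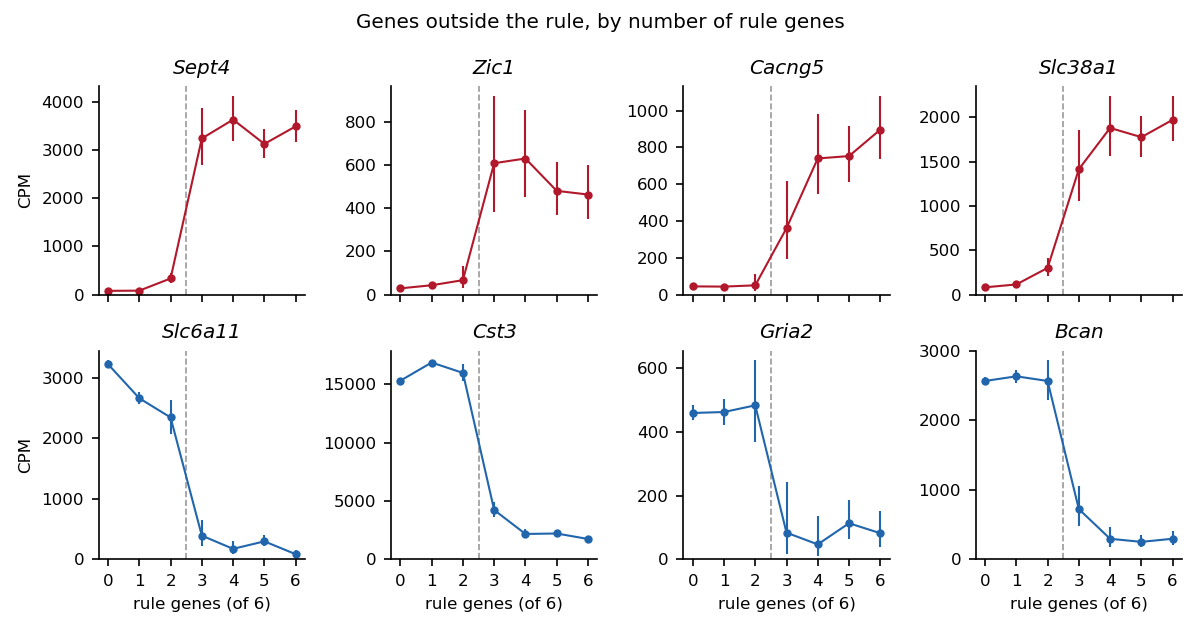
CPM of 8 genes outside the rule in Slc1a3 brain cells by the number of rule genes found, with 95% Poisson intervals of the summed molecules; dashed lines mark the threshold. Sept4, Zic1, Cacng5 and Slc38a1 (top) stand higher at 3 genes and above, and Slc6a11, Cst3, Gria2 and Bcan (bottom) stand lower.

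Other astroglial cells of the brain were then used as closer comparisons. One set held 2327 cells with both Agt and Slc6a11, and the other 290 cells with both Chst2 and Hapln1. Against the Agt and Slc6a11 cells, 382 of 5644 genes were higher (6.77%) and 263 lower (4.66%). Against the Chst2 and Hapln1 cells, 183 of 2410 were higher (7.59%) and 129 lower (5.35%). The second set had a median depth of 1093 molecules, close to the 1167 of the Bergmann glia-like cells.

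The main differences held against both. Sept4 was 48.2-fold and 96.8-fold higher, Zic1 15.4-fold and 16.2-fold, Cacng5 21.3-fold and 87.6-fold, and Vim 50.1-fold and 42.4-fold. Gria2 was 4.91-fold and 5.59-fold lower, Grin2c 13.8-fold and 24.4-fold, Bcan 8.85-fold and 8.69-fold, and Hes5 47.6-fold and 59.8-fold. Of the leading higher genes, Spock3 and Slc41a3 had fewer than 50 molecules over both sides and could not be called against either set.

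Other genes depended on the comparison. Slc6a9 was 2.53-fold lower than in the Agt and Slc6a11 cells and 2.64-fold higher than in the Chst2 and Hapln1 cells. Ptch1 was 3.72-fold higher than in the latter, with a ratio of 1.26 to the former. Sparc, which encodes a matrix protein, was 5.22-fold higher than in the Chst2 and Hapln1 cells and had a ratio of 1.02 to all other Slc1a3 cells. Lhx2 was 59.3-fold lower than in the Chst2 and Hapln1 cells, of which 57.6% held a forebrain gene other than Mfge8, and had 3.03-fold less CPM than the Agt and Slc6a11 cells, which was not called.

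By mitochondrial share, the Bergmann glia-like cells fell into 151 with under 5% mitochondrial molecules, 90 of them under 1%, and 126 with 5% or more. Of the other Slc1a3 cells, 107 (1.99%) were under 5%. Median depth was 1131 and 1271 molecules. On totals without mitochondrial molecules, 0 of 1224 genes were higher in the low group (0%) and 6 were lower (0.49%). Slc6a11 had 5 and 69 molecules, 27.8 and 450 CPM, against 3679 in the other Slc1a3 cells. Cpe, Nnat, Cst3, Gjb6 and Bcan were 7.71-fold, 6.46-fold, 3.52-fold, 3.44-fold and 3.44-fold lower, and all 6 were also lower in the Bergmann glia-like cells as a whole than in the other Slc1a3 cells. Sept4, Id4, Gdf10 and Gria4 had ratios of 1.47, 1.497, 0.749 and 0.821 and were not called. Larger differences were also left uncalled. Zic1 had a ratio of 1.95 (1.41 to 2.71) and the rule gene Dao of 1.66, while Agt had 0.284 (0.143 to 0.530) and Apoe 0.541. At equal depth, 148 of the low cells and 1529 of the 1656 brain cells with neuroblast and neuron markers had enough molecules to be thinned. Slc6a11 was found in 2.03% and 2.09% of them, Bcan in 4.73% and 4.64%, Gjb6 in 5.41% and 1.90%, and Cst3 in 34.5% and 22.6%. Cpe was found in 3.38% and 14.4%, and Nnat in 2.70% and 75.7%. The limit of 5% was chosen after seeing the data, and the part of free RNA or cell damage in these values was not tested.

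**Figure D5:**
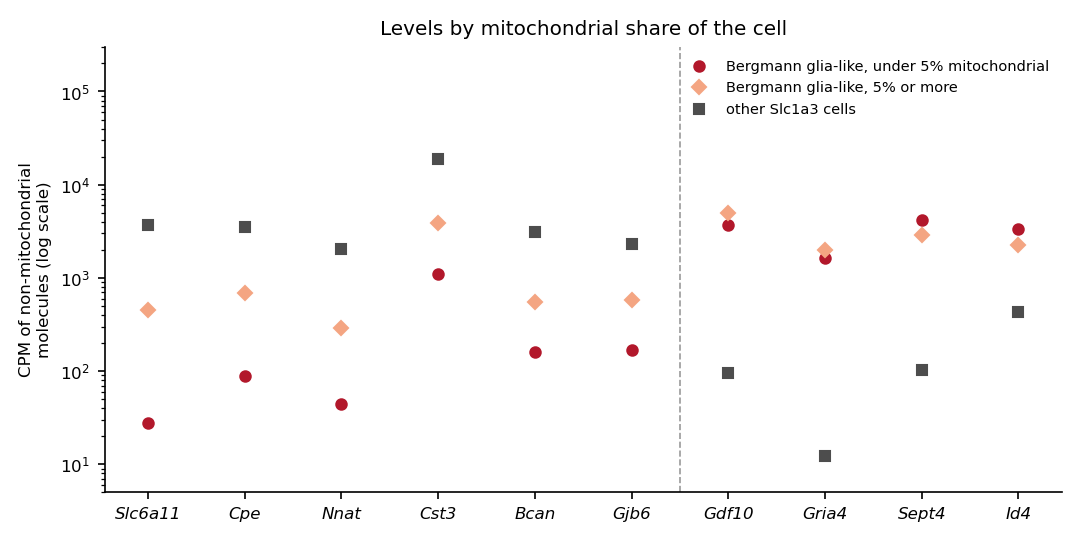
CPM (log scale) of non-mitochondrial molecules in Bergmann glia-like cells under 5% mitochondrial molecules (circles), in those with 5% or more (diamonds) and in the other Slc1a3 cells (squares). Left of the dashed line are the 6 genes lower in the low cells, such as Slc6a11 at 27.8, 450 and 3679 CPM; right of it are 4 genes that were not called, of which Gdf10 and Gria4 are rule genes.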

How the data were processed

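The authors deposited molecule counts per cell and gene for 2 libraries. Per the file headers, these counts came from the BD Rhapsody WTA Analysis Pipeline 1.10.1 with GRCm38 and GENCODE vM19; the error-corrected counts were used. Kept cells had over 200 and under 4000 genes, with mitochondrial molecules below 40%, as in the study's methods. Of the rest, 15 brain barcodes carried 3 or more rule genes. Scrublet (scanpy 1.11.5) called 76 kept brain cells doublets, 4 of them Bergmann glia-like; all were kept. Molecules were summed per group. Ratios have conditional exact binomial intervals and shares Clopper-Pearson intervals, at 95%. Genes needed 50 molecules over both groups, so a gene could pass through the group where it was high. Mitochondrial and rule genes and Slc1a3 were not tested. On data simulated for the main comparison with 8409 genes, 100 of 100 raised and 68 of 100 lowered 5-fold genes were called, with 2 of 8209 unchanged ones. The changed genes all had at least 200 molecules in the others, so the shares called do not cover sparser genes. The simulated counts held counting error only, with no variation between cells. Medians hold genes at 0 at a bound of 3 molecules. Counts at 3′ ends were not compared between genes. Members and lists were chosen with earlier results of these data known, and the named genes are those of the lists and the 15 leading in each direction. Pax2, Slc6a5, Gabra6 and Cldn5 are not listed in the brain file. Some genes of the lists are not reported here. Positions come from GENCODE vM21, matched by symbol.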

Additional observations from a re-analysis of the deposited data

How the results depend on the processing

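No paired analysis was possible because each tissue gave 1 library. Of 158 alternative values, 137 stayed within the limits set for them and 21 moved. For a number of genes the limit was a fold range around its main value, so the balance of higher and lower genes could turn within it. Against the other Slc1a3 cells, TMM scaling turned 358 higher and 280 lower into 245 and 376, and both counts stayed within the limits. In the comparison with the other Slc1a3 cells, no gene called in one direction was called in the other under any of the 25 settings. The group held 408 cells with 2 rule genes needed, 233 with 4 needed, 174 with the rule applied to thinned cells, 238 without Hopx and 193 without Hopx and Gria1. With 2 needed, 139 genes were lower, or 136 and 81 against the Agt and Slc6a11 and the Chst2 and Hapln1 cells. The next counts are given with the genes tested, which differed between settings, beside 358 higher of 8492 in the main comparison. Higher genes numbered 201 of 3607 at a minimum of 200 molecules, 522 of 16616 without a minimum and 231 of 4601 against depth-matched cells. They numbered 186 of 3805 against the cells nearest in mitochondrial share, which stayed apart from the group in that share. Against the Agt and Slc6a11 cells, TMM scaling gave 208 higher and 429 lower of 5644, and median scaling 243 higher. There, a minimum of 200 molecules gave 157 and 153 of 1578, and no minimum 633 higher of 14779. Against the Chst2 and Hapln1 cells, that minimum gave 53 and 54 of 438, and none gave 318 and 250 of 12805. Higher genes were 56.1% of calls by totals, 39.5% by TMM, 46.5% by median scaling and 43.6% by non-mitochondrial totals; the median log2 ratio over genes with molecules on both sides moved from 0.12 to -0.11 under TMM (0.10 with genes at 0 held at their bound). The ratios of 2 called genes crossed 1 against all other kept brain cells, among them Nrxn3 at 0.772, and 2 crossed it against the cells nearest in mitochondrial share. That comparison, the mitochondrial scaling, the removal of Hopx with Gria1 and the split of the group by mitochondrial share were chosen after seeing the data. The cause of these moves was not tested. Genes with few molecules in the 356523 of the group could be called lower only when well above 50 molecules in the others.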

Other observations

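The septin genes and their partners were a family picked here after the values had been seen. Of 8 septin genes tested, 4 were higher in the Bergmann glia-like cells than in the other Slc1a3 cells, 1 was lower and the other three were not called, where 4.22% of all genes tested were higher. Beside Sept4, the higher ones were Sept8 at 819 against 92.8 CPM, Sept7 at 1038 against 386 and Sept2 at 337 against 133. Sept3 was the lower one, at 11.2 against 71.6 CPM. Both Cdc42ep genes tested were higher. Cdc42ep4 and Cdc42ep1, which encode Cdc42 effectors that bind septins, stood at 645 against 79.5 and 595 against 52.3 CPM.

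Outside the rule, 15 brain cells had Bergmann glia-like cells as at least 15 of their 30 nearest neighbours. Of these, 12 held 2 rule genes and 3 held 1, and 14 held Slc1a3. Their median depth was 611 molecules and their median mitochondrial share 0.678%. Summed, they had 3937 CPM of Sept4 and 384 of Zic1, against 3360 and 516 in the Bergmann glia-like cells. Only rule and mitochondrial genes were left out when neighbours were found, so Sept4 and Zic1 could help choose these 15 cells. Their like levels therefore describe the choice and are no finding.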
